A study of Mus musculus with 36 samples.

Results

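Hox cluster genes encode homeodomain transcription factors, and 39 of the 25239 genes in the count table carry their symbols. The rule for a member uses the symbol alone, a cluster letter followed by a paralog number. The set was chosen with earlier results of these data known. Cluster A holds 11 of them on chromosome 6 (chr6:52155590-52260880, minus strand), and cluster B holds 10 on chromosome 11 (chr11:96194316-96368256, plus strand). Cluster C holds 9 on chromosome 15 (chr15:102921103-103036852, plus strand), and cluster D holds 9 on chromosome 2 (chr2:74668310-74765142, plus strand), all in the GRCm38 (mm10) build. The clusters span 96.8 to 174 kb, and all 39 members had an annotated 3′ untranslated region (UTR).

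As background, Hox genes lie in the order in which they are used along the body axis. Genes with low paralog numbers pattern the hindbrain and neck, those in the middle the thorax, and those with high numbers the lumbar and tail region and the limbs. Polycomb complexes keep the clusters silent in embryonic stem cells, retinoic acid and CDX factors open them, and fibroblasts retain the Hox code of the body site they came from. HOX proteins bind DNA together with PBX, MEIS and PKNOX cofactors of the TALE class. The clusters also hold microRNA genes of the miR-10 and miR-196 families, which are known to target Hox mRNAs. P-bodies are condensates in the cytoplasm where mRNAs that are mostly not being translated gather with their binding proteins.

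RNA was sequenced from P-bodies and from the matching cytoplasm of 5 mouse cell states, with 2 libraries per group, giving 20 of the 36 samples of the series. The states were naive v6.5 embryonic stem (ES) cells kept in N2B27 with PD0325901, CHIR99021 and LIF, primed ES cells derived from them with activin A, bFGF and knockout serum replacement, and mouse embryonic fibroblasts (MEFs), in which no factor was induced. The other 2 were MEFs at day 3 of reprogramming by doxycycline with a control hairpin, and the same with a hairpin against Nudt21, a subunit of the mRNA 3′ end cleavage machinery. All cells carried a lentiviral GFP-LSM14A fusion, a P-body protein by which the particles were sorted after nuclei had been removed. The cytoplasm libraries came from the pelleted fraction before sorting, so they also hold P-body RNA. MEFs came from mid-gestation embryos of both sexes without head, limbs, spinal cord, gonads or internal organs, so part of the Hox-expressing body was not sampled. All MEFs carried an inducible Oct4, Klf4, Sox2 and c-Myc cassette at Col1a1, the M2-rtTA transactivator at Rosa26 and a Pou5f1-EGFP reporter. The study calls the samples of a group biologically independent, but the labels do not say whether they came from separate cultures, and p-values measure only the spread between these samples.

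The libraries held 6769727 to 31185799 reads assigned to genes, the 2 primed cytoplasm libraries being the shallowest. Fibroblast markers (12 genes) summed to 37100 to 40400 reads per 1000000 assigned reads (CPM) in MEF cytoplasm, 5960 to 6120 at day 3, 2040 after the knockdown and 49.9 to 61.0 in primed cytoplasm. Pluripotency markers (9 genes) summed to 6090 to 7440 CPM in naive, 3220 to 3340 in primed and 41.2 to 46.2 in MEF cytoplasm, and 6 primed epiblast markers to 2620 to 2650 CPM in primed and 62.0 to 91.9 in naive cytoplasm. The second MEF P-body library stood apart, since 4 lung epithelium genes summed to 87.8 CPM in it, to 5.81 in the first and to 0 in both MEF cytoplasm libraries. Another 2 pairs spread widely: the SD of the log2 difference between replicates was 0.447 for naive cytoplasm and 0.403 for day 3 control P-bodies, against 0.128 to 0.245 for the other groups. The MEF and naive results below are therefore also given without single libraries.

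Hox mRNAs are shown here with the microRNA sites they hold, because the miR-196 and miR-10 genes lie inside the same clusters. The mature sequences, from RefSeq (GRCm38.p6), carry the seed, bases 2 to 8, in capitals. Mir10a lies at chr11:96317186-96317208 (plus strand) in cluster B and Mir10b at chr2:74726074-74726096 (plus) in cluster D. Mir196a-1 lies at chr11:96265187-96265208 (plus), Mir196a-2 at chr15:102973365-102973386 (plus) in cluster C, and Mir196b at chr6:52230129-52230150 (minus) in cluster A. The let-7a sequence is shown for contrast, because its seed differs from that of miR-196 by a shift of 1 base.
miR-10a-5p: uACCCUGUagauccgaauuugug
miR-10b-5p: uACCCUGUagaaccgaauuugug
miR-196a-5p: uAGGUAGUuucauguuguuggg
miR-196b-5p: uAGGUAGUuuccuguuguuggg
let-7a-5p: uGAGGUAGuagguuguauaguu
miR-10a and miR-10b share 1 seed, and so do miR-196a and miR-196b.

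The match to the miR-196 seed (ACTACCT on the mRNA strand) stood in the 3′ UTR of 9 of the 39 members (23.1%), against 6.27% of the 20018 genes of the table with an annotated 3′ UTR. Among them were Hoxa4, Hoxa5, Hoxa7, Hoxa9, Hoxb1, Hoxb6, Hoxb7 and Hoxc8, and none lay in cluster D. The miR-10 match (ACAGGGT) stood in 4 members (10.3%, against 12.9% of all genes), among them Hoxa3, Hoxb3 and Hoxd1. The let-7 match (CTACCTC) stood in 6 (15.4%, against 9.24%), and the let-7 and miR-196 matches of Hoxb1 overlapped. The sites below are 30 bases each, 5′ to 3′ on the mRNA strand, in the 3′ UTR of some of the members with a match, with the seed match in capitals.
Hoxa7 site 1, chr6:52215399-52215428, minus: gtgcgcaggcacagccaaaatACTACCTag
Hoxa7 site 2, chr6:52215362-52215391, minus: ctctttgagaggcactcccaaACTACCTat
Hoxa7 site 3, chr6:52215230-52215259, minus: tacctgcaaaccatgatcaatACTACCTac
Hoxa7 site 4, chr6:52215209-52215238, minus: actacctactactagccctaaACTACCTat
Hoxa5, chr6:52202117-52202146, minus: gttaaagatatttttattcaaACTACCTat
Hoxa9, chr6:52223899-52223928, minus: ctttaagcaaaaggaaagaaaACTACCTtt
Hoxb7, chr11:96289777-96289806, plus: cttaacactgtaaaaaaatatACTACCTat
Hoxc8 site 1, chr15:102992969-102992998, plus: agaatgacactcacaactctaACTACCTgt
Hoxc8 site 2, chr15:102993726-102993755, plus: ctgataataaatctttaacatACTACCTaa
Hoxa3, miR-10, chr6:52169652-52169681, minus: ttctctactctttgataagaaACAGGGTat
Hoxb3, miR-10, chr11:96347281-96347310, plus: ttctcttgacttaacgtgaaaACAGGGTat
Hoxa7 was the member with 4 miR-196 matches, and Hoxc8 had 2. A match is a run of letters and was not tested for binding.

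Hox transcripts were present in each cell state, but their sum and their cluster makeup differed. Over all 39 members the P-body libraries held 199 and 221 CPM in MEFs, 164 and 225 at day 3, 113 and 121 after the knockdown, 208 and 222 in primed cells and 46.2 and 48.2 in naive cells. The cytoplasm libraries held 178 CPM in both MEF libraries, 169 and 173 at day 3, 128 and 129 after the knockdown, 88.9 and 93.4 in primed cells and 59.3 and 69.7 in naive cells. The gap between the fractions was therefore widest in primed cells, where both P-body libraries held more than 2 times the cytoplasm value. It ran the other way in naive and in knockdown cells, and at day 3 the fractions overlapped.

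**Figure D1:**
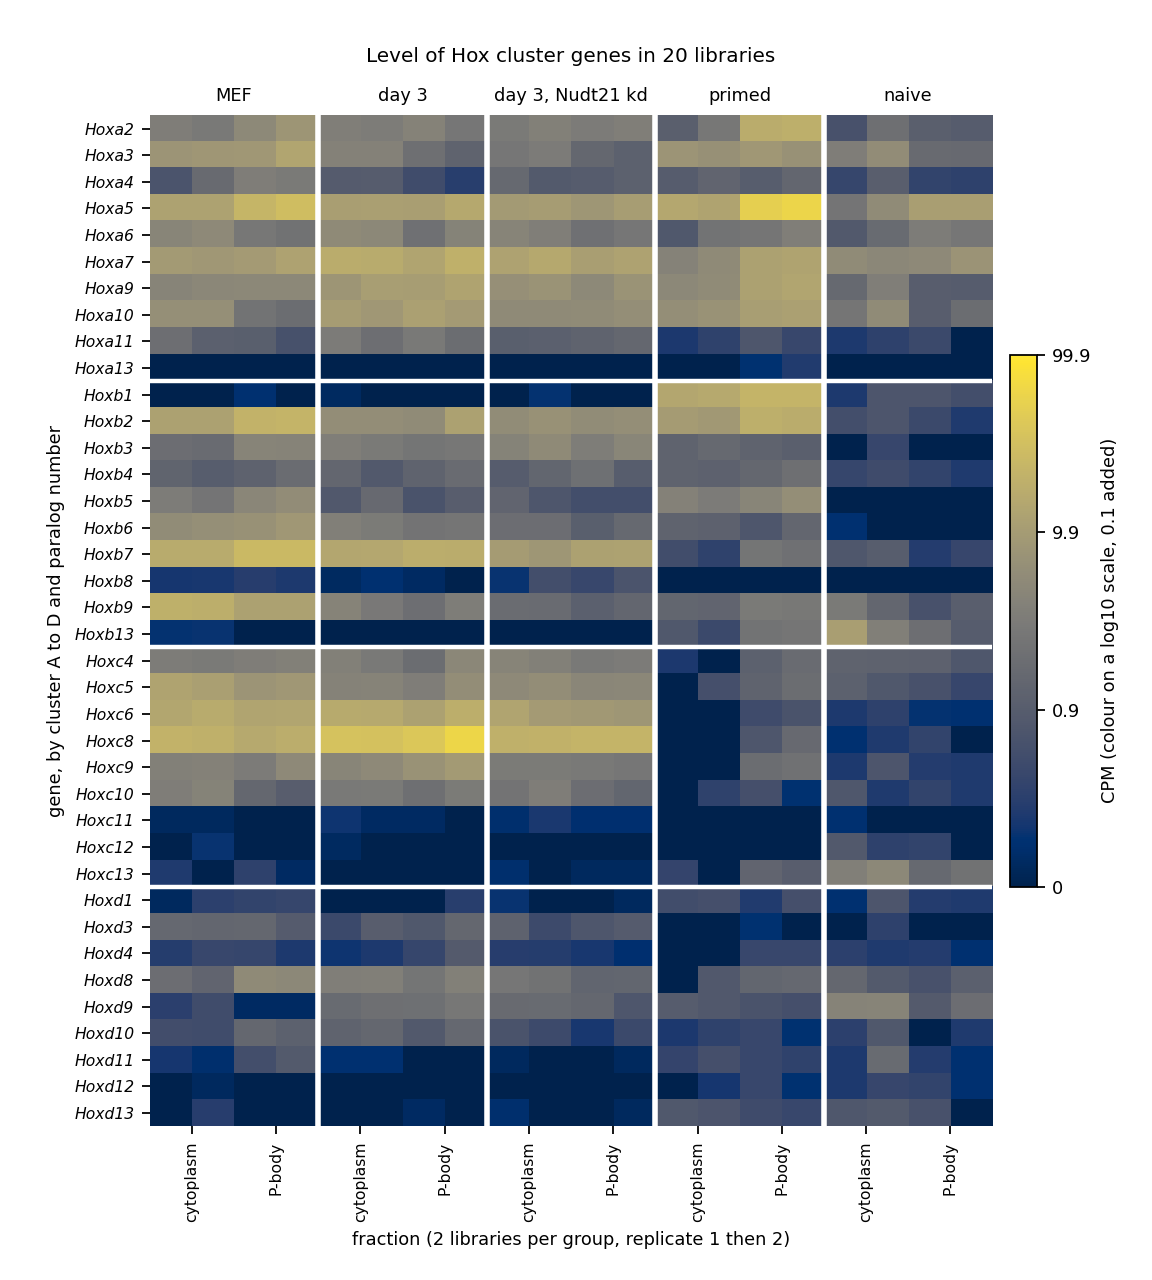
Level of Hox cluster genes (vertical axis, in paralog order within clusters A to D) in the 20 libraries (horizontal axis, grouped by cell state, cytoplasm before P-body), with colour for CPM on a log10 scale after adding 0.1. Cluster C is filled in the MEF and day 3 columns, lower in the naive and primed P-body ones and nearly empty in primed cytoplasm. Hoxb1 is seen in primed columns.

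Cluster C carried this difference in makeup most plainly. Its 9 members summed to 58.4 and 58.7 CPM in MEF cytoplasm and 65.6 and 64.6 at day 3, but to 0.443 and 0.748 CPM in primed cytoplasm. Primed P-bodies held 6.83 and 8.71 CPM of cluster C, above both primed cytoplasm libraries and far under every MEF library (44.9 and 50 CPM in MEF P-bodies). Cluster A held most of the primed Hox reads, with 51.8 and 56.0 CPM in the cytoplasm and 141 and 152 CPM in P-bodies. Cluster B summed to 60.1 and 58.2 CPM in MEF cytoplasm and 34.1 and 33.2 in primed cytoplasm, and cluster D to 4.30 and 4.35 CPM in MEF cytoplasm and 9.32 and 8.2 in MEF P-bodies.

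**Figure D2:**
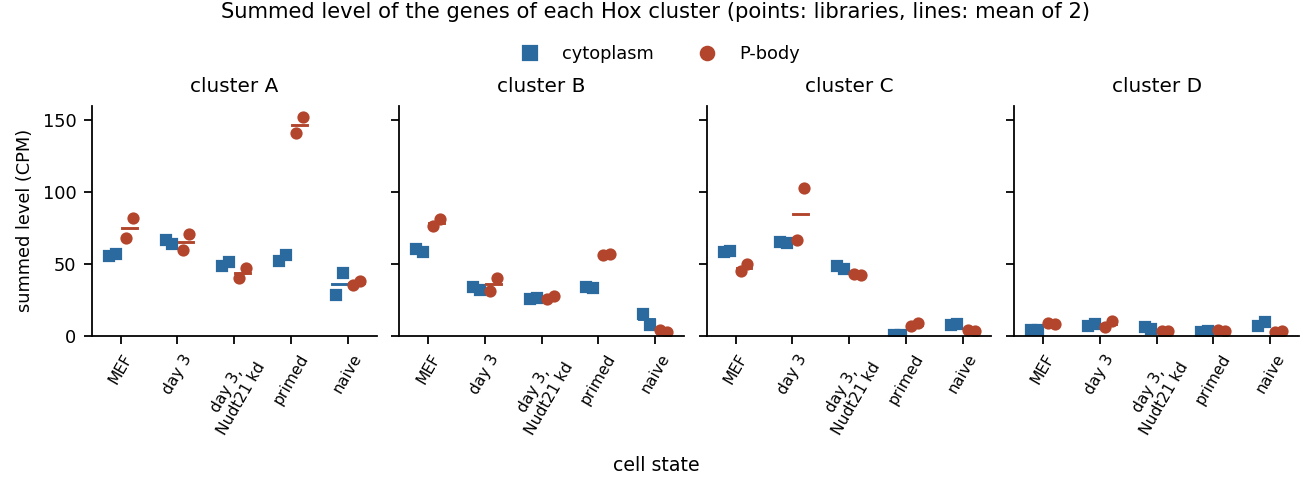
Summed level of the members of each Hox cluster (vertical axis, CPM) in each library, by cell state and fraction, 1 point per library and a line at the mean of each pair. Primed P-bodies lie at 141 and 152 CPM for cluster A against 51.8 and 56.0 in primed cytoplasm, while cluster C is at 0.443 and 0.748 CPM in primed cytoplasm.

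Levels can be ordered between genes only per transcript length, so CPM was divided by the length of the longest annotated transcript in kb. In MEF cytoplasm the order was led by Hoxb7 (12.8 to 12.9 CPM per kb), Hoxc8 (10.7 to 11.2) and Hoxc6 (8.99 to 10.5), all genes of the thoracic part of the code. Hoxb9 (7.08 to 7.56) and Hoxb2 (7.30 to 7.31) followed, and their ranges overlapped. At day 3 Hoxc8 led the cytoplasm with 18.0 to 18.5 CPM per kb, ahead of Hoxb7 with 11 to 11.5.
In primed cytoplasm the order was led by Hoxa5 (6.91 to 7.87 CPM per kb) and Hoxb1 (6.87 to 7.53), which overlapped, then Hoxb2 (5.36 to 6.08). Primed P-bodies had Hoxa5 first at 27.2 to 32.0 CPM per kb, above the 10.6 to 11.6 of the next gene, Hoxb2.

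In MEFs the Hox genes went in both directions. Of 32 members tested, 10 had a higher level in P-bodies and 5 in cytoplasm, 7 others having fewer than 10 reads in the 4 libraries. A level is a share of its library's reads, so it does not tell what part of an mRNA lies in P-bodies. Over all 16198 genes tested, 26.6% were called higher and 28.7% lower in P-bodies, so the member share lies near the background for the higher side and under it for the lower. A call is an adjusted p under 0.05 in edgeR's quasi-likelihood test with Benjamini-Hochberg adjustment over all genes tested. The members' median log2 fold change of P-body over cytoplasm was 0.32, against 0.03 over all genes, and 21 of the 32 lay above 0. Fewer cells of a type and less RNA per cell cannot be told apart in bulk samples.

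Of the members higher in MEF P-bodies, 3 belonged to cluster A, 4 to B and 3 to D. Hoxa5 (chr6:52201754-52204587, minus strand), which patterns the neck and thorax and the lung, had 22.8 and 29.97 CPM in P-bodies and 12.4 and 12.2 in cytoplasm (log2 fold change 1.08 ± 0.16, SE, edgeR adjusted p = 0.000311). Hoxb2, a hindbrain gene, had 20.8 and 22.3 CPM in P-bodies and 11.9 in both cytoplasm libraries (0.84 ± 0.13, edgeR adjusted p = 0.000512). Both genes were higher in each P-body library than in either cytoplasm library. Here and below, such separation of 2 against 2 libraries describes the values and adds no support to a call. Hoxb7, of the thoracic code, had 26.2 and 26.5 CPM in P-bodies and 16.6 and 16.5 in cytoplasm (0.65 ± 0.12, edgeR adjusted p = 0.00122). The highest fold among called members was that of Hoxd11, a limb and lumbar gene, which had 0.474 and 0.812 CPM in P-bodies and 0.128 and 0.0664 in cytoplasm, from 33 and 6 reads (2.65 ± 0.90, edgeR adjusted p = 0.0318). The other 6 were Hoxd8, Hoxa4, Hoxd10, Hoxb3, Hoxa2 and Hoxb5, all under 5 CPM on average, with log2 fold changes of 0.90 to 1.72. Hoxb3 shares 52.9% of its exon bases with the antisense gene Hoxb3os, and Hoxb2 shares 27.3%, and the library kit does not mark strand, so their reads and those of Hoxb3os cannot be told apart.

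Members lower in MEF P-bodies were Hoxb9, Hoxc5, Hoxa6, Hoxc10 and Hoxa10. Hoxb9, which patterns the rib cage, had 11.9 and 12.1 CPM in P-bodies against 19.5 and 18.2 in cytoplasm (-0.67 ± 0.14, edgeR adjusted p = 0.00238). Hoxc5 had 7.66 and 8.58 against 12.8 and 11.2 CPM (-0.58 ± 0.17, edgeR adjusted p = 0.0154). Hoxa10 (chr6:52231197-52240854, minus strand), which specifies rib-free lumbar vertebrae, had 2.21 and 1.78 against 6.35 and 6.31 CPM (-1.68 ± 0.23, edgeR adjusted p = 0.000256), the lowest fold among called members. In these genes no P-body library reached the level of a cytoplasm library. Without the first or the second MEF cytoplasm library 7 and 8 members were called, and without the first or the second P-body library 18 and 15. The second P-body library is the one with lung transcripts, and without it 9 members were higher and 6 lower. The call of Hoxc5 ended without either cytoplasm library and that of Hoxb9 without the first.

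**Figure D3:**
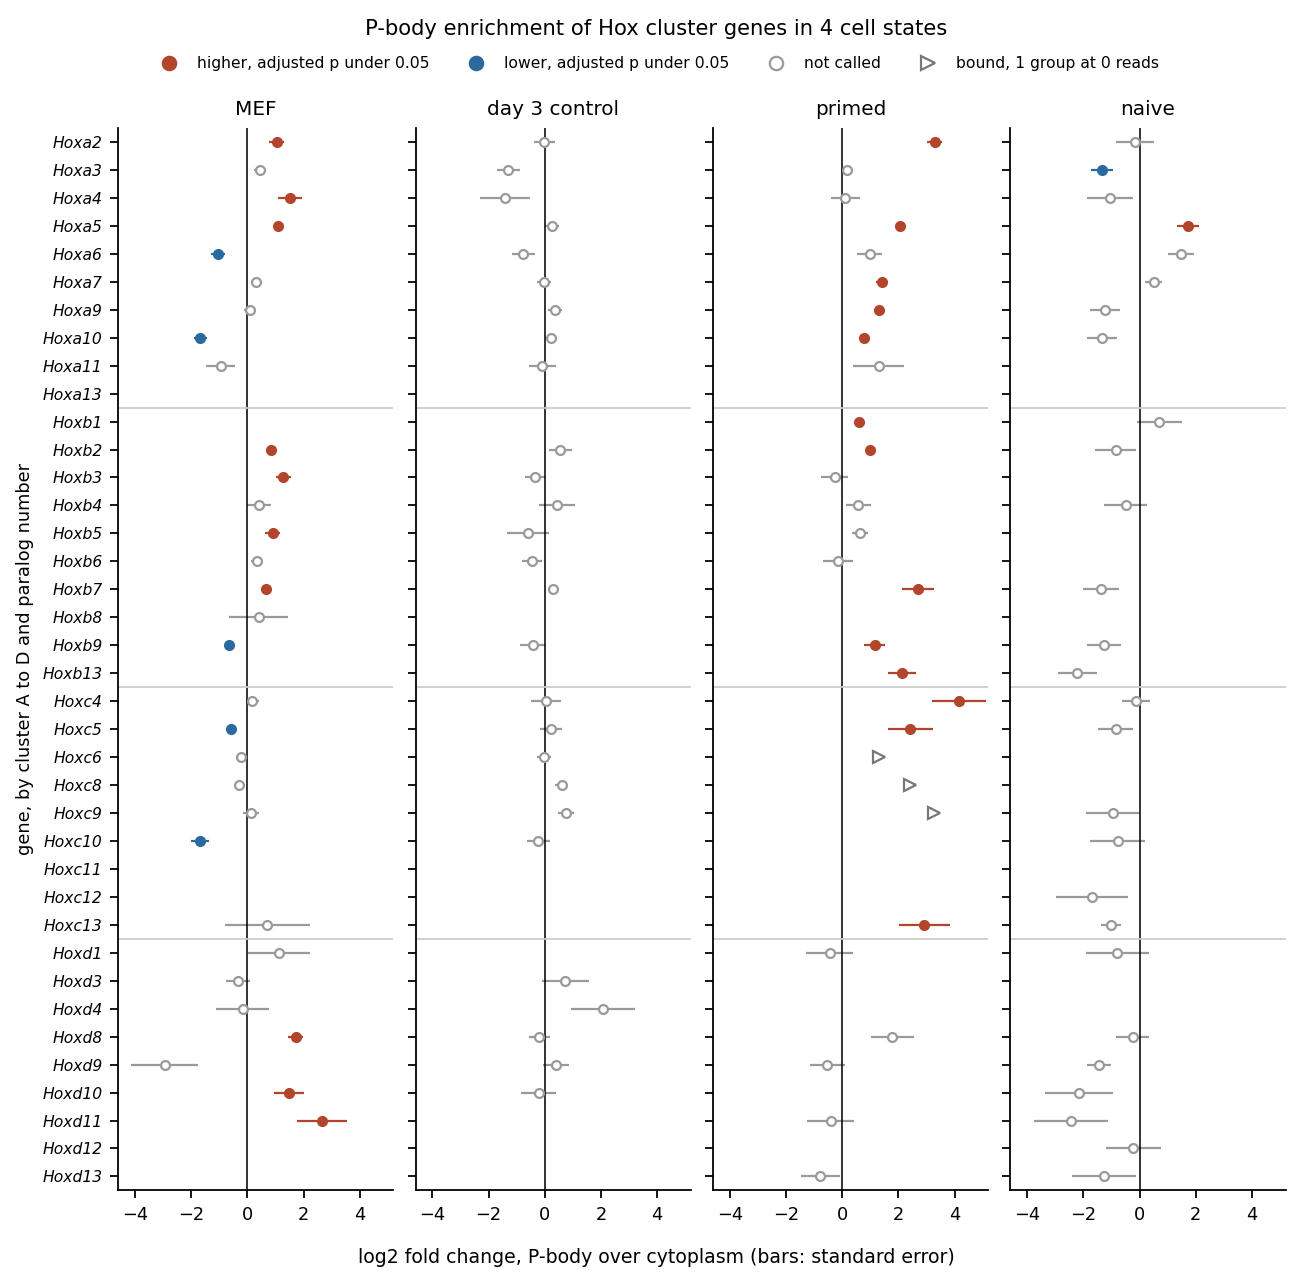
Log2 fold change of P-body over cytoplasm (horizontal axis, ± SE derived from edgeR's F statistic) for Hox cluster genes tested (vertical axis) in MEFs, day 3 control, primed and naive cells. Filled points are called at an adjusted p under 0.05, open points are not, and triangles mark bounds for members with 0 reads in 1 fraction. In MEFs 10 members were called to the right and 5 to the left of 0, and in primed cells, where triangles mark Hoxc6, Hoxc8 and Hoxc9, 0 to the left.

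At day 3 of reprogramming no Hox gene was called in either direction among 28 tested. The background was low as well: 0.196% of 15786 genes were higher and 0.450% lower in P-bodies. By edgeR 3 members had an unadjusted p under 0.05, and DESeq2 called 0. The members' median log2 fold change was 0.005, against -0.008 over all genes. The pair of day 3 control P-body libraries is the one with the wide spread, and without its first library edgeR called 7 members higher and 1 lower, and without its second 0 higher and 3 lower.

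Hoxc8, the first member per kb in day 3 cytoplasm, shows this spread. Its P-body libraries held 40.2 and 61.7 CPM and its cytoplasm libraries 34.6 and 33.7. Hoxa5 had 11.1 and 15.3 CPM in P-bodies and 11.1 and 11.2 in cytoplasm, and Hoxb2 had 5.48 and 12.1 against 6.06 and 6.04. Of these genes, Hoxc8 was higher in both P-body libraries than in either cytoplasm library.

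Nudt21 itself had 5.72 and 5.01 CPM in the cytoplasm libraries labelled as its knockdown and 89.1 and 92.2 in the control ones, and 5.96 and 5.51 against 107 and 115 in P-bodies. In knockdown cells 1 of 29 Hox genes tested was called in the comparison of P-body with cytoplasm, and it was lower. That gene, Hoxa3, which is needed for the thymus and parathyroid, had 1.42 and 1.07 CPM in P-bodies and 2.57 and 3.07 in cytoplasm (log2 fold change -1.16 ± 0.32, edgeR adjusted p = 0.0275). Over all 15995 genes 9.04% were higher and 12.8% lower, and the members' median was -0.24, against 0.003. Whether the knockdown changed P-body enrichment was tested directly: edgeR called 0 of 30 members, 1 with an unadjusted p under 0.05, and DESeq2 called 0. Over all 16973 genes tested 0% were called higher and 0.0118% lower in that contrast. Without the first day 3 control P-body library 2 members were called lower.

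In primed cells the called Hox genes lay on the P-body side. Of 30 members tested, 17 had a higher level in P-bodies and 0 a lower one, where 26.5% of the 16177 genes tested were higher and 24.2% lower. The members' median log2 fold change was 1.12, against 0.001 over all genes, and 24 of 30 lay above 0. With an unadjusted p under 0.05 there were 20 members, and DESeq2 called 12. By cluster, 6 of 10 tested members of A were higher, 5 of 9 of B, 6 of 6 of C and 0 of 5 of D. The 6 of cluster C had 12 to 46 reads in P-bodies and 0 to 4 in cytoplasm. They passed the minimum of 10 reads only through the fraction where they are high, and their count is no support. Hoxb7 (53 against 5 reads) and Hoxb13 (56 against 8) of cluster B passed it in the same way. The 17 calls and the median hold all these members, so neither is support as it stands. The primed cytoplasm libraries are also the shallowest.

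Hoxa5 and Hoxa2 led the well-measured members. Hoxa5 had 51.0 and 60.1 CPM in primed P-bodies and 14.8 and 12.97 in cytoplasm (log2 fold change 2.04 ± 0.13, edgeR adjusted p = 6.289e-08). Hoxa2 (chr6:52162417-52164831, minus strand), which patterns the hindbrain and the second branchial arch, had 17.4 and 19.0 CPM against 1.03 and 2.62 (3.29 ± 0.27, edgeR adjusted p = 5.705e-07). For both genes each P-body library lay above both cytoplasm libraries. Of its exon bases 15.0% are shared with another gene on the same strand, while Hoxa5 shares none.

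Anterior members and members of the middle and posterior part were also higher in primed P-bodies at 5 CPM or more. Hoxb1, which sets up an early hindbrain segment, had 22.3 and 22.2 CPM in P-bodies and 14.3 and 15.7 in cytoplasm (0.60 ± 0.13, edgeR adjusted p = 0.00243). Hoxb2 had 18.8 and 17.3 against 9.897 and 8.73 CPM (0.99 ± 0.16, edgeR adjusted p = 0.000185). In both genes the P-body libraries lay above the cytoplasm libraries.
Hoxa7 had 11.9 and 12.8 CPM against 3.99 and 5.36 (1.42 ± 0.21, edgeR adjusted p = 9.1e-05), and Hoxa9, known for its part in blood progenitors and leukaemia, 12.1 and 13.7 against 5.02 and 5.49 (1.32 ± 0.19, edgeR adjusted p = 9.05e-05). Hoxa10 had 10.8 and 11.5 against 6.20 and 7.11 CPM (0.77 ± 0.19, edgeR adjusted p = 0.00411). These 3 genes did not overlap between the fractions either. Hoxa7 shares 20.4% of its exon bases with the antisense gene Hoxaas3, so their reads cannot be told apart. The calls of Hoxa10 and Hoxb1 ended in the fit of all 20 libraries together.

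The remaining called members were scarce. Hoxc9 had 1.75 and 2.12 CPM in primed P-bodies and 0 in both cytoplasm libraries (46 against 0 reads), Hoxc8 had 0.666 and 1.52 against 0 (26 against 0 reads) and Hoxc6 12 against 0 reads. With 3 reads over the group as the floor, they were at least 9.52-fold, 5.38-fold and 2.48-fold higher in P-bodies. Hoxc4 had 33 against 1 read (ratio 20.5, exact 95% interval 3.43 to 833) and Hoxc13 26 against 2 (ratio 8.07, 2.02 to 70.2). Such intervals cover counting error only, since the reads carry no molecular identifiers. Hoxb7, Hoxb9, Hoxb13 and Hoxc5 had log2 fold changes of 1.16 to 2.70 from 35 to 67 reads in P-bodies. Each cluster C member tested in primed cells thus rested on 0 to 4 reads in the cytoplasm.

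**Figure D4:**
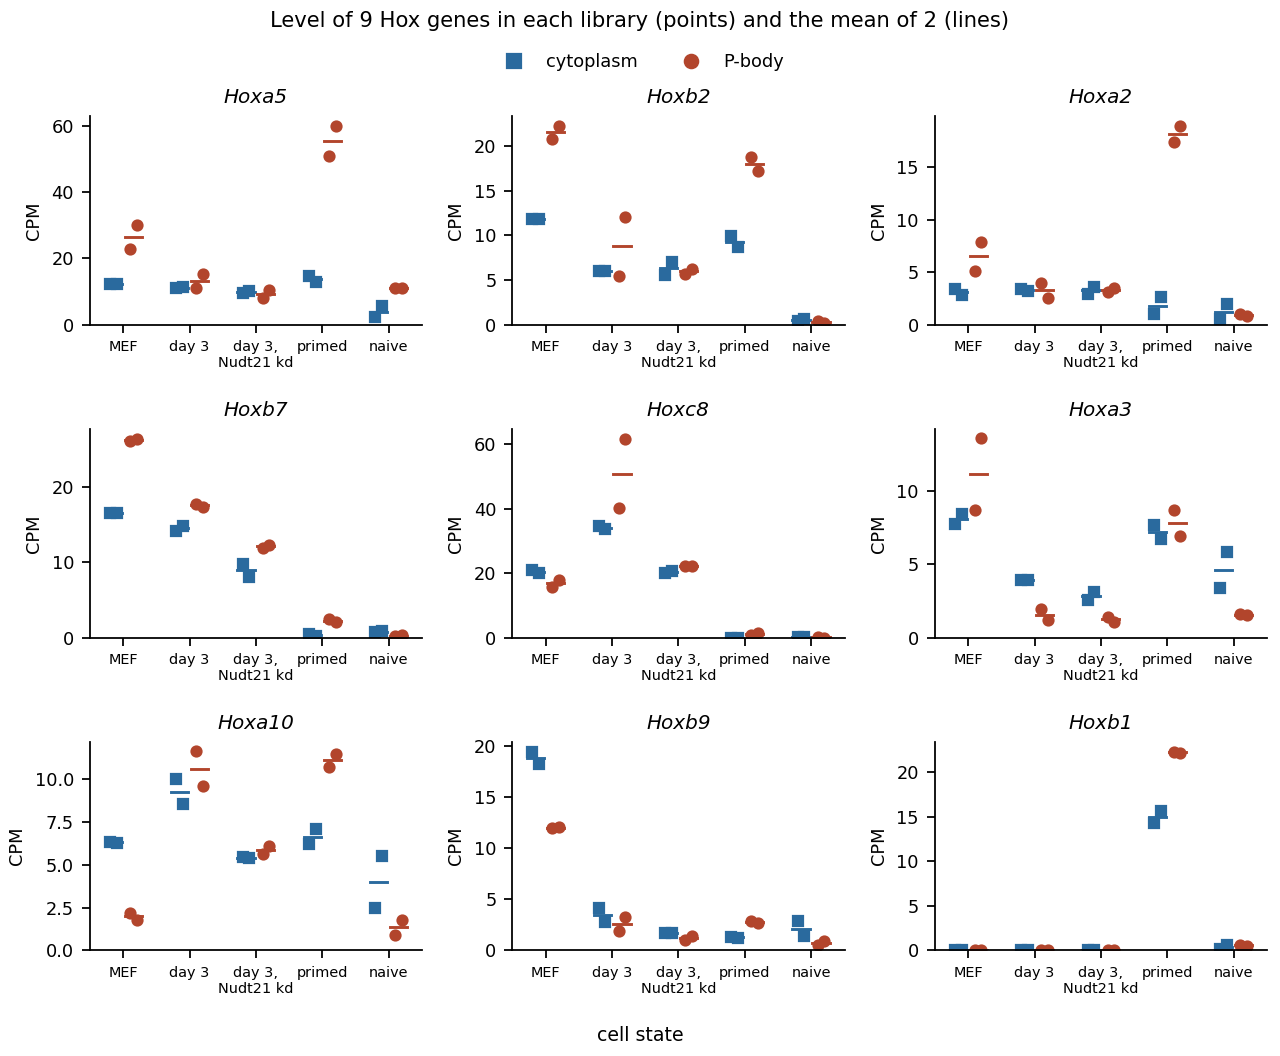
Level (vertical axis, CPM, each panel starting at 0) of 9 Hox cluster genes in each of the 20 libraries, by cell state (horizontal axis), with cytoplasm and P-body libraries as separate points, 2 per group, and lines at their means. Hoxa5 is at 51.0 and 60.1 CPM in primed P-bodies and at 14.8 and 12.97 in primed cytoplasm, while Hoxa10 lies lower in MEF P-bodies (2.21 and 1.78) than in MEF cytoplasm (6.35 and 6.31).

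In naive cells 1 of 28 members was called higher in P-bodies and 1 lower, where 22.6% and 15.4% of the 15630 genes tested were. Hoxa5 had 11.1 and 10.98 CPM in P-bodies and 2.35 and 5.59 in cytoplasm (log2 fold change 1.71 ± 0.40, edgeR adjusted p = 0.0233). Hoxa3 had 1.58 and 1.51 against 3.37 and 5.84 CPM (-1.34 ± 0.39, edgeR adjusted p = 0.0448). Neither gene overlapped between the fractions, although the naive cytoplasm libraries differ more from each other than those of any other group. The members' median was -0.90, against -0.06 over all genes, and 5 of 28 lay above 0. Some members passed the minimum of 10 reads only through the cytoplasm, where they are high. Among them were Hoxd11 (3 reads in P-bodies against 22 in cytoplasm), Hoxd10 (2 against 12) and Hoxc12 (3 against 13). The median and the count above 0 hold such members, so neither is support as it stands. Without the first or second P-body library 0 members were called, without the first cytoplasm library 11 (3 higher, 8 lower) and without the second 7 (2 higher, 5 lower).

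Hoxa5 was thus called higher in P-bodies in MEFs, primed cells and naive cells. Whether enrichment differed between states was tested as a difference of the P-body over cytoplasm folds. For primed minus MEF, 15 of 35 members tested were called higher and 1 lower, against 23.1% and 18.5% of 18216 genes. The members' median difference was 1.79 log2 units, against -0.03 over all genes. Among the higher ones, Hoxc9, Hoxc8, Hoxb13, Hoxc6, Hoxc4, Hoxc5 and Hoxb7 each rest on a group with 0 to 8 reads. They passed the minimum of reads only through the groups where they are high. The 15 calls and the median hold all these members, so neither is support as it stands. Hoxa5 differed by 0.91, Hoxa2 by 2.22 and Hoxa10 by 2.41, while Hoxb3 differed by -1.59. Hoxa10 was lower in MEF P-bodies and higher in primed P-bodies, with per-library values given above. The fitted differences of Hoxc9, Hoxc8 and Hoxc6 (7.76, 7.36 and 6.17) rest on groups at 0 reads and depend on the prior count, so they are no bounds.

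For day 3 minus MEF, 1 of 32 members was called higher and 4 lower, against 9.59% and 5.13% of 17488 genes. Hoxa10 was the higher one, by 1.93 ± 0.34 log2 units (edgeR adjusted p = 0.00574): it had 11.7 and 9.60 CPM in day 3 P-bodies and 10.02 and 8.54 in day 3 cytoplasm. Hoxa3 was a lower one, with a difference of -1.69 ± 0.43 (edgeR adjusted p = 0.0253). Its values were 8.69 and 13.6 CPM in MEF P-bodies, 7.70 and 8.43 in MEF cytoplasm, 1.94 and 1.19 in day 3 P-bodies and 3.93 and 3.89 in day 3 cytoplasm. Hoxa3 was thus not called in MEFs or at day 3 alone. Its fractions did not overlap in either, which with 2 libraries per group is no support for a difference. The call of Hoxa3 ended in 5 fits that left out a library, among them the one without the MEF P-body library with lung transcripts. Of its exon bases 27.1% are shared with other genes, antisense ones among them, whose reads cannot be told apart from its own. Hoxb3, Hoxd8 and Hoxa4 were the other lower ones, at -1.59 to -2.87. Without the second day 3 cytoplasm library 0 members were called, and without the first or second day 3 P-body library 10 and 11. Both contrasts use the same 4 MEF libraries.

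Between MEFs and day 3, cytoplasm levels of Hox genes moved in both directions. At day 3, 8 of 30 members tested were higher and 10 lower, against 35.5% and 33.7% of 16108 genes, shares at or under the background, and the median was -0.23, against 0.04. Of 8 tested members of cluster B, 5 were lower and 1 higher. Hoxb9 changed most, from 19.5 and 18.2 CPM in MEFs to 4.19 and 2.77 at day 3 (log2 fold change -2.59 ± 0.17, edgeR adjusted p = 1.506e-09). Hoxc5 went from 12.8 and 11.2 to 4.001 and 4.16 CPM (-1.72 ± 0.16), Hoxb2 from 11.9 in both to 6.06 and 6.04 (-1.14 ± 0.14) and Hoxa3 from 7.70 and 8.43 to 3.93 and 3.89 (-1.21 ± 0.17). In these 4 genes both day 3 libraries lay under both MEF libraries.

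Some members of clusters A, C and D were higher at day 3. Hoxc8 had 34.6 and 33.7 CPM at day 3 and 20.9 and 19.9 in MEFs (0.58 ± 0.10). Hoxa7 had 17.5 and 16.7 against 9.27 and 8.496 CPM (0.78 ± 0.13), and Hoxa9 7.93 and 10.7 against 4.36 and 4.81 (0.86 ± 0.18). These genes did not overlap between the states. Hoxd9, a limb gene, had the highest fold among called members, from 0.225 and 0.431 CPM in MEFs to 1.61 and 1.92 at day 3 (2.26 ± 0.48, edgeR adjusted p = 0.000612).
Hoxa10 had 10.02 and 8.54 CPM at day 3 and 6.35 and 6.31 in MEFs (0.39 ± 0.16). Hoxb7 had 14.3 and 14.9 against 16.6 and 16.5 CPM (-0.35 ± 0.12), and Hoxa5 11.1 and 11.2 against 12.4 and 12.2 (-0.30 ± 0.13, edgeR adjusted p = 0.0485). These 3 small differences did not overlap between the states, and each call ended under 3 or more alternative settings. The summed fibroblast markers fell over the same samples, from 37100 to 40400 CPM to 5960 to 6120, while Hoxc8 and Hoxa7 rose. Their part in the Hox levels was not tested.

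After the Nudt21 knockdown 10 of 29 members tested were lower in day 3 cytoplasm and 0 higher, against 25.0% lower and 24.6% higher of 15990 genes. Of paralogs 1 to 4, 1 of 10 was lower, of paralogs 5 to 8, 4 of 11, and of paralogs 9 to 13, 5 of 8, a difference that was not tested. Hoxc8 had 20.03 and 20.7 CPM after the knockdown and 34.6 and 33.7 in the control (log2 fold change -0.76 ± 0.10, edgeR adjusted p = 9.884e-06), where MEF cytoplasm had 20.9 and 19.9 CPM. Hoxb7 had 9.82 and 8.04 against 14.3 and 14.9 CPM (-0.71 ± 0.15), and Hoxa10 5.46 and 5.39 against 10.02 and 8.54 (-0.79 ± 0.18, edgeR adjusted p = 0.00112). Hoxc6 had 13.1 and 9.69 against 15.9 and 15.7 CPM (-0.47 ± 0.15), a call that ended under 2 alternatives. In these genes both knockdown libraries lay under both control libraries. The lowest fold was that of Hoxd10 (0.585 and 0.378 against 1.20 and 1.42 CPM, -1.42 ± 0.50). DESeq2 called 6 members, and the fibroblast marker sum was 2040 CPM in both knockdown libraries against 5960 to 6120, whose part in these values was not tested.

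Primed cytoplasm differed from MEF cytoplasm in 20 of 33 members tested, with 18 lower and 2 higher, against 39.2% lower and 39.6% higher of 16711 genes. The median log2 fold change was -1.14, or -0.76 with members at 0 reads set to their bound, against 0.01 over all genes. All 6 tested members of cluster C were lower, with 0 to 4 reads in primed and 188 to 1252 in MEF cytoplasm. They passed the minimum of 10 reads only through MEFs, where they are high, so their count is no support. Hoxd3 and Hoxd4 (0 primed reads), Hoxa11 (3), Hoxb7 (5) and Hoxd8 (6) passed it in the same way. The 18 calls and the median hold all these members, so neither is support as it stands. Hoxc8 had 1252 reads in MEF and 0 in primed cytoplasm, at least 101-fold lower with 3 reads as the floor. Hoxc6 had 942 against 0, at least 75.7-fold lower, Hoxc9 was at least 18.7-fold lower, and Hoxd3 and Hoxd4 were at least 6.91-fold and 1.29-fold lower. Hoxc4, with 188 reads in MEFs and 1 in primed cells, was 45.3-fold lower (exact 95% interval 8.04 to 1800), and Hoxc10 27.5-fold (7.52 to 228). Hoxb7 had 16.6 and 16.5 CPM in MEFs and 0.443 and 0.249 in primed cells (-5.99 ± 0.30), and Hoxb9 19.5 and 18.2 against 1.33 and 1.25 (-4.27 ± 0.22). Hoxc5 had 12.8 and 11.2 CPM in MEFs and 0 and 0.499 in primed cells (736 against 4 reads). All these members lay lower in both primed libraries than in either MEF library.

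Hoxb1 had 0 reads in MEF cytoplasm and 14.3 and 15.7 CPM in primed cytoplasm, at least 308-fold higher. It was thus seen in both primed libraries and in neither MEF library. Hoxb1 passed the minimum of 10 reads only through primed cells, where it is high, so its call is no support. Hoxa7 had 3.99 and 5.36 against 9.27 and 8.496 CPM (-1.32 ± 0.21), Hoxb2 9.897 and 8.73 against 11.9 in both (-0.76 ± 0.16) and Hoxa3 7.68 and 6.73 against 7.70 and 8.43 (-0.57 ± 0.19, a call lost in 4 alternatives). Hoxa3 differed by little and its lowest MEF library lay just above its highest primed one.
Posterior mesoderm markers, 6 genes that could mark differentiating cells, summed to 5.47 to 6.11 CPM in primed cytoplasm and to 1.69 to 2.5 in primed P-bodies. Neural markers (4 genes) summed to 33.8 to 42.1 and 134 to 136 CPM. These sums moved with the fractions in opposite directions, and their part in the Hox values was not tested.

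Set against naive cytoplasm, primed cytoplasm had 5 of 30 members higher and 4 lower, against 21.6% and 22.1% of 16125 genes. Hoxb1 had 0.157 and 0.649 CPM in naive and 14.3 and 15.7 in primed cells, from 10 and 223 reads. Hoxb2 was higher too (3.83 ± 0.38), from 0.470 and 0.649 to 9.897 and 8.73 CPM, and Hoxa5 went from 2.35 and 5.59 to 14.8 and 12.97 CPM (1.62 ± 0.41). Hoxb5 had 51 reads against 0, at least 28.9-fold higher, and Hoxb6 17 against 1 (ratio 28.9, exact 95% interval 4.52 to 1210). The lower ones, Hoxc13, Hoxc4, Hoxb13 and Hoxd9, were posterior genes but for Hoxc4. Hoxc13 had 108 reads in naive and 2 in primed cytoplasm (31.8-fold lower, 8.60 to 266). Hoxb13 had 10.9 and 3.57 CPM in naive cytoplasm and 0.739 and 0.374 in primed cytoplasm. Hoxb5, Hoxb6, Hoxc13, Hoxc4 (1 primed read) and Hoxb13 (8) passed the minimum of 10 reads only through the state where they are high. The counts of higher and lower members hold these genes, so neither is support as it stands. Without either primed cytoplasm library 4 members were called, and without the second naive one 15.

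The TALE cofactors, through which HOX proteins bind DNA, were tested as a list of 9. In primed cells 7 of 9 were higher in P-bodies and 0 lower, with a median log2 fold change of 1.54. Over all genes tested the shares higher and lower were 26.5% and 24.2% in primed and 22.6% and 15.4% in naive cells. They were 26.6% and 28.7% in MEFs, 0.196% and 0.450% at day 3 and 9.04% and 12.8% after the knockdown. Meis1 had 69.9 and 67.5 CPM in primed P-bodies and 6.20 and 4.49 in cytoplasm (3.73 ± 0.14), and Meis2 208 and 212 against 19.8 and 20.7 (3.41 ± 0.083). In naive cells 4 were higher and 2 lower, in MEFs 2 and 4, at day 3 0 and 0, and after the knockdown 0 and 1. In MEFs Pknox2 had -2.35 and Pknox1 -0.65, and Meis3 and Meis2 0.57 and 0.54. The difference between primed and MEF enrichment was called higher for 7 and lower for 0 of the 9, against 23.1% and 18.5% of all genes.

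Noncoding genes in or beside the clusters also lay on the P-body side where called. In MEFs 4 of 9 tested were higher and 0 lower, against 26.6% and 28.7% of all genes. In primed cells 5 of 8 were higher and 0 lower, against 26.5% and 24.2%. Hoxb5os had 9.32 and 8.24 CPM in MEF P-bodies and 2.24 and 3.19 in cytoplasm (1.68 ± 0.23), and Hoxb3os 10.7 and 11 against 6.09 and 5.87 (0.84 ± 0.17). Halr1, a long noncoding RNA next to cluster A, had 186 and 191 CPM in primed P-bodies and 22.7 and 26.3 in primed cytoplasm (2.97 ± 0.09). In naive cells it had 172 and 181 against 9.87 and 27.0 CPM (3.50 ± 0.43), and 1 of 4 tested noncoding genes was higher there and 0 lower. At day 3 and after the knockdown 0 of 9 were called.

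Regulators of the clusters were counted from 2 further lists. The shares over all genes given with the TALE list are the background for the counts in this paragraph. Of the activators (among them CDX factors, retinoic acid receptors, Egr2, Kmt2a and Men1), 0 of 7 tested were higher and 6 lower in MEF P-bodies, led by Egr2 (-1.16) and Men1 (-0.95). In primed cells 3 of 8 were higher, among them Rarb at 3.23, and 3 lower. In naive cells 2 of 8 were higher and 0 lower, at day 3 0 of 7 were called, and after the knockdown 0 of 8 were higher and 2 lower. Of the 15 Polycomb genes, 2 were higher and 5 lower in MEFs, 9 and 3 in primed, 7 and 1 in naive, 0 and 0 at day 3 and 0 and 5 after the knockdown. In primed cells Bmi1 had 1.80, and in MEFs Jarid2 had -1.21 and Ezh1 -0.85. Non-Hox limb and trunk patterning genes had 1 higher and 6 lower of 13 in MEFs, 7 and 0 of 12 in primed cells, 1 and 4 of 8 in naive cells, 0 and 1 of 13 at day 3 and 0 and 3 of 14 after the knockdown.

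In the cytoplasm the same lists moved as follows. Over all genes 35.5% were higher and 33.7% lower from MEF to day 3, and 24.6% and 25.0% after the knockdown. For primed cytoplasm these shares were 39.6% and 39.2% against MEFs and 21.6% and 22.1% against naive cells. From MEF to day 3, 9 Polycomb genes were higher and 2 lower of 15, and 4 limb and trunk genes were higher and 7 lower of 13. TALE genes had 2 higher and 3 lower, activators 1 and 3 of 7, and noncoding genes 1 and 2 of 10. After the knockdown 5 of 9 TALE genes, 4 of 8 activators and 8 of 14 limb and trunk genes were lower, with 0, 1 and 0 higher. Polycomb genes had 7 higher and 3 lower, and 0 of 9 noncoding genes were called.
Between MEF and primed cells 10 of 13 limb and trunk genes and 4 of 9 TALE genes were lower in primed cytoplasm and 1 of each higher, while 9 of 15 Polycomb genes were higher and 4 lower. Activators had 3 higher and 3 lower of 9, and noncoding genes 2 and 2 of 10. Between naive and primed cytoplasm the 5 lists had 1 to 4 higher and 0 to 5 lower.

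Sequence features did not order the members in one way across states. Their longest transcripts had a median length of 2136 bases and 53.7% GC, against 2842 bases and 49.3% over 20018 genes, and 3′ UTRs of 966 bases with 47.4% GC against 995 bases and 43.6%. The 10 members higher in MEF P-bodies had a median 3′ UTR of 704 bases and 40.7% GC, and the 5 lower ones 1309 bases and 47.9%. As a description over members, Spearman's rho of the MEF fold with 3′ UTR GC was -0.37 (32 members) and that of the primed fold -0.08 (30 members). With transcript GC it was 0.13 and -0.38, and with mean CPM -0.09 and 0.02. Members share their library and, within a cluster, their locus, so they are not independent points.

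Members with a miR-196 match were compared with the rest in words only. In MEFs the 8 tested members with a match had a median log2 fold change of 0.32 and the 24 without one 0.29. In primed cells the medians were 1.32 for 9 members, 7 of them called higher, and 0.99 for 21 members, 10 of them called higher. The miR-10 match had medians of 0.78 (4 members) and 0.24 (28) in MEFs, and -0.06 (4) and 1.31 (26) in primed cells. For let-7 they were 0.30 (4) and 0.32 (28) in MEFs, and 0.60 (5) and 1.32 (25) in primed cells. The primed groups hold members that passed the minimum of 10 reads only through P-bodies, where they are high. With a miR-196 match these were Hoxb7 and Hoxc8, and without one Hoxb13 and the other tested members of cluster C. The primed medians and counts are therefore no support as they stand.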

How the data were processed

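RNA of sorted P-bodies and of cytoplasm was amplified with an oligo-dT kit that does not mark strand. Per the submitters' processing notes the authors used HISAT2, featureCounts and DESeq2 with the mm10 build. The values the authors deposited for the 20 libraries are estimated counts per gene symbol, not normalized, with fractions of reads, which were rounded here to whole counts. Their 10 comparison tables (log2 fold changes and p-values) were not used, and 0 columns were left unmapped. Reads assigned to genes ran from 6769727 to 31185799 per library. Each comparison was fitted with edgeR 4.0.16 (R 4.3.3), TMM scaling and two-sided quasi-likelihood tests, after dropping genes under 10 reads summed over the fitted libraries. P-values were adjusted by Benjamini-Hochberg over all genes tested, with a call at 0.05. The SE of a fold was derived as the absolute log2 fold change over the square root of the test's F statistic. It is thus tied to the p-value and is no separate measure of spread. The same fits were tested on simulated data. DESeq2 1.42.0, other size factors and filters, a replicate block, a joint fit and fits without single libraries were alternatives. A library left alone in its group was assumed to vary like the other group. CPM is reads per 1000000 assigned reads. No pair of libraries was alike within sampling noise. Transcript lengths, UTRs and exon overlap came from GENCODE M21, sequences from RefSeq and GRCm38.

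The members, gene lists and named genes were chosen with earlier results of these data known. Members called with a mean of at least 5 CPM, and those with the highest and lowest fold among the called, were given by library. Of other lists at most 2 called genes per direction with at least 5 CPM were named. Some genes are not reported here, though they are in the counts. The 12 polysome and total RNA libraries and 4 Ago2 knockout libraries hold estimated counts that the authors made with salmon, and entered no test.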

Additional observations from a re-analysis of the deposited data

Results flagged for a closer look

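The P-body enrichment of 5 members differed between day 3 and MEFs in the test of the difference itself (edgeR adjusted p under 0.05, log2 units, day 3 minus MEF). Hoxa10 differed by 1.93, Hoxb3 by -1.59, Hoxa3 by -1.69, Hoxd8 by -1.88 and Hoxa4 by -2.87. Hoxa4, Hoxb3 and Hoxd8 lay under 5 CPM on average, and Hoxb3, Hoxa3 and Hoxa4 share 52.9%, 27.1% and 16.0% of their exon bases with other genes.

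Between primed cells and MEFs 16 members differed in the same test (primed minus MEF), of which 15 are given here. Higher ones with at least 10 reads in each group were Hoxa10 at 2.41, Hoxa2 at 2.22, Hoxa6 at 1.98, Hoxb9 at 1.79, Hoxa9 at 1.19, Hoxa7 at 1.08 and Hoxa5 at 0.91. Those of Hoxc9 (7.76), Hoxc8 (7.36), Hoxb13 (6.18), Hoxc6 (6.17), Hoxc4 (4.01), Hoxc5 (2.98) and Hoxb7 (2.03) rest on a group with 0 to 8 reads and depend on the prior count. Hoxb3 differed by -1.59.

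Hox transcripts were also seen in libraries outside these comparisons. In the table of polysome and total RNA from naive ES cells with a DDX6 degron, 16 members had more than 3 reads in every library. The members summed to 72.4 to 75.4 CPM in control polysomes and 52.5 to 54.3 in control total RNA, and to 61.8 to 64.5 and 43.3 to 47.99 after DDX6 degradation. In the table of Ago2 knockout cells 25 members had more than 3 reads in every library. Hoxa5 had 13.1 and 12.4 CPM in P-bodies and 5.67 and 5.82 in cytoplasm there, and Hoxa3 4.03 and 4.003 against 7.25 and 6.87. These differences were not tested.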

How the results depend on the processing

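Every log2 fold change recomputed, that of each called member with at least 5 CPM in its comparison, kept its sign under the alternatives run. Counts of called Hox members moved by over 1.5 times in these cases. With all 20 libraries in 1 fit they were 1 instead of 0 for day 3 enrichment, 8 instead of 2 for naive enrichment, 10 instead of 18 for day 3 against MEF cytoplasm and 4 instead of 10 for knockdown against control cytoplasm. With no filter they were 3 instead of 1 for knockdown enrichment and 4 instead of 2 for naive enrichment, with filterByExpr 4 for naive enrichment, and with DESeq2 6 instead of 10 for knockdown against control cytoplasm. Leaving out each library in turn gave 7 to 18 calls for MEF enrichment, 0 to 8 for day 3, 0 to 2 for the knockdown, 13 to 16 for primed and 0 to 11 for naive. The differences gave 0 to 11 (day 3 minus MEF), 0 to 2 (knockdown minus control) and 13 to 17 (primed minus MEF), and the cytoplasm levels 13 to 16 (day 3 against MEF), 7 to 11 (knockdown against control), 17 to 20 (primed against MEF) and 4 to 15 (primed against naive). Apart from the smaller number of samples, the cause of these shifts was not tested.

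Over all genes, day 3 enrichment had 31 higher and 71 lower calls, but 939 and 1166 by DESeq2, 228 and 574 with the replicate block, 812 and 1128 with no filter, 63 and 139 with filterByExpr and 1358 and 1950 with all 20 libraries in 1 fit. Knockdown enrichment had 1446 and 2055, but 891 and 1209 in the joint fit, and the knockdown difference 0 and 2, but 3 and 23 by DESeq2 and 12 and 50 with no filter. The replicate numbers are not stated to pair libraries, and same-numbered libraries correlated at -0.0609 to 0.200. With the replicate block 13, 0, 1, 17 and 3 members were called for MEF, day 3, knockdown, primed and naive enrichment, 5, 0 and 16 for the 3 differences, and 17, 12, 19 and 10 for the 4 cytoplasm comparisons in the order above. Of the named members, the block ended the call of Hoxa5 in day 3 against MEF cytoplasm. Depth limits members under 1 CPM, most of all in primed cytoplasm.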
